A study of Homo sapiens with 27 samples.

Results

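The genes of 10 amino acid transporters of the cell surface were read out in U937 cells treated with matrine. The members are SLC7A5, SLC3A2, SLC1A5, SLC1A4, SLC38A1, SLC38A2, SLC7A1, SLC7A6, SLC7A7 and SLC43A1, chosen by name, and all 10 were found among the 57905 genes of the U937 table. U937 is an established human leukemia cell line with monocytic features, and matrine is a plant alkaloid of Sophora roots. RNA-seq was done on 3 control libraries, on 3 libraries of cells given matrine at 0.8 mg/ml for a period of 30 min and on 3 libraries of cells given the same dose for 24 h, all grown in RPMI medium with fetal bovine serum. The same control served both times, its time in culture is not given in the sources used here, and the vehicle of the study was ddH2O. The data describe a single cell line, and nothing in the labels says whether the 3 libraries of a group came from separate cultures, so p-values measure only the spread between these libraries.

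Amino acids cross the plasma membrane through carriers that either exchange one amino acid for another or use the sodium gradient to concentrate them. SLC7A5 (LAT1) takes in leucine and other large neutral amino acids in exchange for glutamine and works only when joined to the glycoprotein SLC3A2 (CD98 heavy chain). The leucine that enters is sensed at the lysosome by the machinery that turns on mTORC1, and dividing blood cells, leukemia cells among them, rely on this supply. Several of these genes are textbook targets of c-Myc, and several are also targets of ATF4, the transcription factor that cells make when amino acids run short.

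Libraries held 17314931 to 21930018 counts, of which 4.99% to 5.28% came from the 10 genes with the most counts. The myeloid character of the line could be read from its transcripts: 9 of 10 myelomonocytic markers had a mean FPKM above 1 in the control, while CD3E, CD3D, MS4A1 and EPCAM were listed at 0. Of 7 erythroid markers HBG1 and HBE1 were at 0, and the summed FPKM of the list was 5.53 to 7.07 in the control, 4.99 to 6.41 after 30 min and 6.68 to 7.90 after 24 h. The 6 lymphoid markers summed to 2.61 to 3.68, 2.91 to 3.61 and 3.80 to 4.17 in the same order, with CD79A called higher at 24 h. FPKM is the number of fragments scaled by the length of the gene and the total of the library, so levels of different genes can be compared on it. Tests covered genes with a mean FPKM above 1 in the 6 libraries of a comparison, and a gene was called when edgeR's quasi-likelihood test gave an adjusted p below 0.05 with a fold change of at least 1.5 (0.585 on the log2 scale). Below, rose and fell are used only of called genes.

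Short DNA motifs of 2 kinds were searched in the promoters of the members, since they are the sites that c-Myc and the ATF4 family are known to bind. All 10 members matched RefSeq promoters (GRCh38.p14, from 250 bases before to 50 after each start), with 19 promoters in all because several genes have more than 1 start. The E-box CACGTG, which reads the same on both strands, was present in 4 of 19 member promoters (21.1%) and in 7.26% of all 35116 promoters. These belonged to SLC7A5, SLC1A5, SLC7A7 and SLC43A1. The 3 examples below run 5′ to 3′ on the strand of the gene, with the E-box in capitals, and belong to members expressed well above the filter.
SLC7A5, chr16:87869620-87869649, minus strand: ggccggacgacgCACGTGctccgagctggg
SLC1A5, chr19:46787326-46787355, minus strand: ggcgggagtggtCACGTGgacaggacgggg
SLC43A1, chr11:57515797-57515826, minus strand: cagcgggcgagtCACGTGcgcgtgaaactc
In SLC7A5 the E-box starts 130 bases before the RefSeq start of its promoter, in SLC43A1 112 bases and in SLC1A5 50 bases before it. SLC1A5 has 3 promoters and SLC43A1 has 2, and which of them U937 cells use was not tested. The SLC1A5 promoter with the E-box lies inside the gene.

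The core of the amino acid response element, TGATGNAA on either strand, was present in 5 of 19 member promoters (26.3%) and in 3.62% of all promoters. The 2 motifs did not overlap in any member promoter, and no match of the core was found in SLC7A5, SLC38A2, SLC7A6, SLC7A7 or SLC43A1. The 5 matches are shown with that of ASNS, asparagine synthetase, whose response element is the textbook example. Capitals mark the 8 bases of the core.
SLC1A4, chr2:64989381-64989410, plus strand: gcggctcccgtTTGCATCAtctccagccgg
SLC38A1, chr12:46266502-46266531, minus strand: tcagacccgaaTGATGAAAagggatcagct
SLC7A1, chr13:29595663-29595692, minus strand: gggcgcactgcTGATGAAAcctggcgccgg
SLC3A2, chr11:62881719-62881748, plus strand: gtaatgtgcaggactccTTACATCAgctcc
SLC1A5, chr19:46784893-46784922, minus strand: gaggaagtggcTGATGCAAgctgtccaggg
ASNS, chr7:97872458-97872487, minus strand: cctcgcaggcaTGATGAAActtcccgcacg
In SLC1A4 and SLC3A2 the core lies on the opposite strand, so its reverse complement is printed. The core starts 7 bases before the RefSeq start of its promoter in SLC1A4, 4 in SLC38A1, 97 in SLC1A5 and 68 in ASNS. In SLC7A1 it starts 7 bases after the RefSeq start, and in SLC3A2 37 bases after it. The promoters with the core in SLC1A4, SLC38A1, SLC3A2 and SLC1A5 lie inside the gene, and which promoters U937 cells use was not tested. A match is a run of letters and not a measured binding site, and the absence of one speaks only for this window.

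In control cells the 10 genes spanned more than 2 orders of magnitude. SLC1A5 was the most abundant, at 165.9 ± 3.67 FPKM (SD, n = 3), followed by SLC7A5 at 133.3 ± 2.48. Together these genes made up 64.5% ± 0.665 of the summed FPKM of the 10 genes. SLC3A2 came next at 39.0, then SLC1A4 at 30.7 and SLC43A1 at 29.7, whose libraries overlapped each other. SLC7A1 stood at 23.8, and SLC38A2 (18.04) and SLC38A1 (17.8) again overlapped. SLC7A6 was low at 5.09 and SLC7A7 lowest at 0.573. The order after 30 min was the same, with the libraries of SLC7A1 and SLC38A2 now overlapping. After 24 h SLC1A4 had passed SLC3A2 and SLC38A2 had passed SLC43A1 and SLC7A1, and no neighbors in the order overlapped. The summed FPKM of the 10 genes was 464.0 ± 2.03 in the control, 485.7 ± 21.1 after 30 min and 463.2 ± 1.33 after 24 h (SD, n = 3), while the part made up by SLC1A5 and SLC7A5 was 57.7% ± 0.237 at 24 h. FPKM gives shares of the RNA in a library, and in bulk RNA fewer expressing cells and less RNA per cell cannot be told apart.

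**Figure D1:**
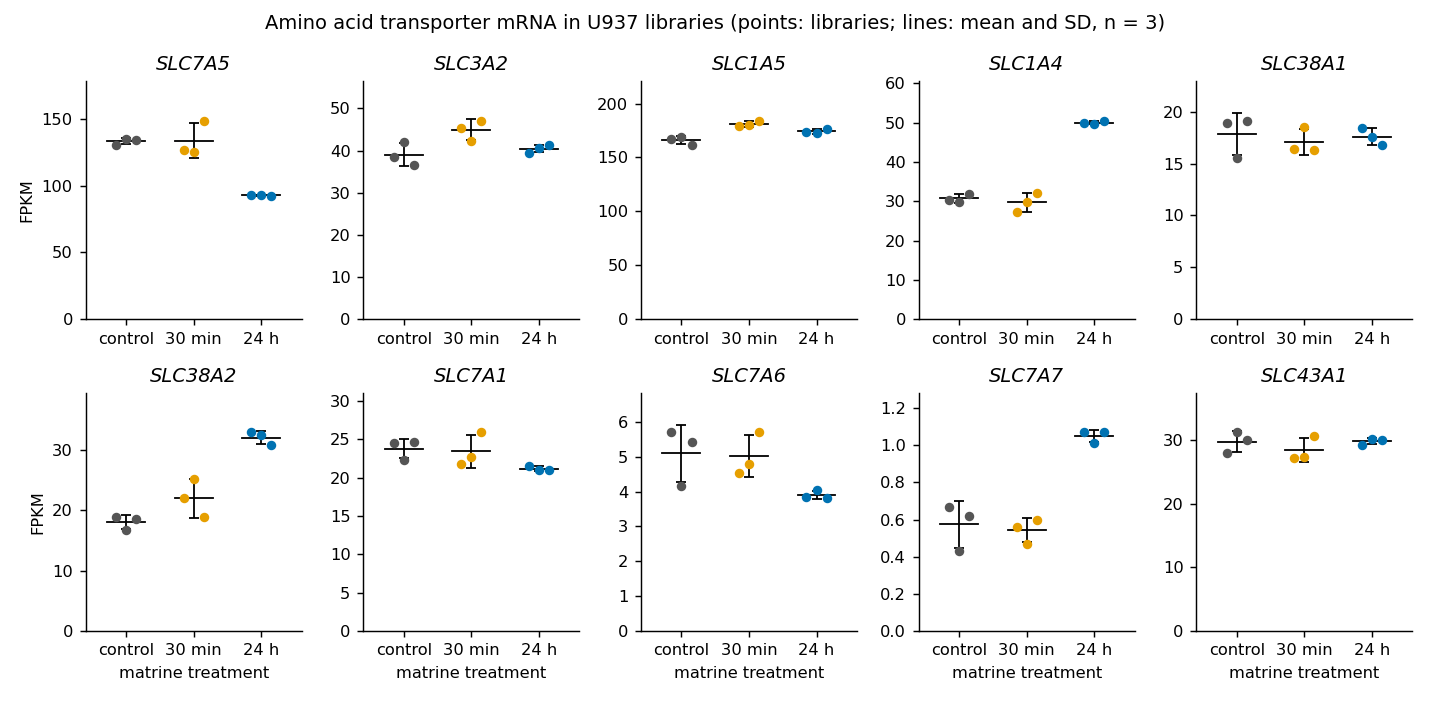
FPKM of the 10 transporter genes (vertical axes from 0, a separate scale for each gene) in the control, 30 min and 24 h libraries; points are libraries, lines the mean and SD (n = 3). The 24 h libraries of SLC7A5 sit between 92.5 and 93.3, below all others, and those of SLC1A4, SLC38A2 and SLC7A7 sit above all others.

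SLC7A5 (ENSG00000103257) lies on chromosome 16 from 87830023 to 87869507 on the minus strand. Its FPKM was 131, 135 and 134 in the 3 control libraries, then 127, 125 and 149 after 30 min, and 92.6, 93.3 and 92.5 after 24 h. The 24 h libraries were all lower than any other, and replicate 3 of the 30 min group was the highest of the 9. At 30 min the log2 fold change was 0.02 ± 0.0578 (SE), with an adjusted p of 0.96 in edgeR's quasi-likelihood test. At 24 h the gene was 1.496-fold lower than the control (log2 fold change −0.58 ± 0.0581, adjusted p = 2.5e-08), which is just short of the fold threshold, so that it was not called. Without control replicate 1 the value was −0.60 and the gene was called. Against the 30 min libraries SLC7A5 fell 1.51-fold (log2 fold change −0.60, adjusted p = 1.6e-08). That call rested on replicate 3 of the 30 min group, without which the value was −0.52. Its exons share 271 bases with an antisense transcript that had at most 9 counts, and the near copy SLC7A5P1 had 120 to 177 counts against 9015 to 14387 for SLC7A5.

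SLC3A2 (ENSG00000168003, chromosome 11 from 62856004 to 62888880, plus strand), the heavy chain that carries SLC7A5 to the membrane, kept a 24 h level within the range of the control. It was at 38.5, 42.0 and 36.6 FPKM in control cells, at 45.4, 42.2 and 47.1 after 30 min and at 39.5, 40.5 and 41.3 after 24 h. The 30 min libraries lay above all control libraries, and the 24 h and control libraries overlapped. At 30 min the log2 fold change was 0.21 ± 0.0619, which was not called (adjusted p = 0.093, and 0.014 to 0.42 across the edgeR, DESeq2 and limma alternatives). At 24 h it was −0.01, with a 95% interval from −0.14 to 0.12 (adjusted p = 0.93). From 30 min to 24 h the level was 1.17-fold lower (adjusted p = 0.0037), below the fold threshold.

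SLC7A6 (ENSG00000103064, chromosome 16 from 68264516 to 68301823, plus strand) encodes y+LAT2, another light chain of SLC3A2, which exports cationic amino acids in exchange for neutral ones. The control libraries had 5.70, 4.15 and 5.43 FPKM, against 4.54, 4.80 and 5.70 after 30 min, and 3.84, 4.03 and 3.81 after 24 h. The 24 h libraries were lower than all others, narrowly so against control replicate 2. The log2 fold change at 24 h was −0.445 ± 0.102 (adjusted p = 0.00076), short of the fold threshold. The antisense gene SLC7A6OS shares 3372 of its 7588 exon bases, and since the strand setting of the counting is not given in the sources used here, reads of the 2 genes cannot be told apart there. SLC7A6OS had 243 to 315 counts, against 597 to 897 for SLC7A6.

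SLC7A7 (ENSG00000155465, chromosome 14 from 22773222 to 22829820, minus strand) encodes y+LAT1, the light chain of the same kind that is found in macrophages, gut and kidney. It was at 0.67, 0.43 and 0.62 FPKM in control cells, at 0.56, 0.47 and 0.60 after 30 min, and at 1.07, 1.01 and 1.07 after 24 h. The 24 h libraries were clearly apart from the other 6, which overlapped. Its mean was under the FPKM filter, so it has no test in the main analysis. With the filter replaced by a minimum of 10 counts it was 1.72-fold higher at 24 h than in the control (log2 fold change 0.78 ± 0.182, adjusted p = 0.00053 in edgeR's quasi-likelihood test), on 43 to 72 counts per control library and 106 to 120 at 24 h. The myelomonocytic markers moved in both directions at the same time. Of 10 tested, 4 rose at 24 h (MPO, AZU1, CSF3R and ITGB2) and 0 were called lower, beside 14.8% higher and 11.5% lower over all genes. MPO passed the filter only through its 24 h level (0.313 FPKM in the control, 1.84 at 24 h). CD4 (log2 fold change 0.553, adjusted p = 3e-08) and PTPRC (0.499, adjusted p = 7.8e-07) were higher without reaching the fold threshold. SPI1 (log2 fold change −0.33, adjusted p = 0.00027), LYZ (−0.32, adjusted p = 2.2e-05) and CEBPA (−0.375, adjusted p = 0.00018) were lower without reaching the fold threshold, each with all 24 h libraries below the control. The summed FPKM of the 10 was 776 to 814 in the control, 778 to 813 after 30 min and 1010 to 1023 after 24 h. The part of these markers in the transporter values was not tested.

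SLC1A5 (ENSG00000105281, chromosome 19 from 46774883 to 46788594, minus strand) encodes ASCT2, the sodium-dependent exchanger that brings glutamine into the cell. The control libraries had 167, 169 and 162 FPKM, against 179, 180 and 184 after 30 min, and 174, 172 and 177 after 24 h. All treated libraries were higher than all control libraries on this scale, but by little. After TMM scaling the log2 fold change was 0.14 ± 0.0483 at 30 min (adjusted p = 0.20) and 0.01 at 24 h, with a 95% interval from −0.09 to 0.11 (adjusted p = 0.82). The 24 h value was thus not separable from 0, and its sign depended on the filter (−0.02 without the FPKM filter).

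SLC1A4 (ENSG00000115902, chromosome 2 from 64988477 to 65023865, plus strand), its relative that exchanges alanine, serine and cysteine, rose at 24 h. It was at 30.3, 29.9 and 31.9 FPKM in control cells, at 27.3, 29.9 and 32.1 after 30 min, and at 49.9, 49.6 and 50.5 after 24 h. The control and 30 min libraries overlapped, and the 24 h libraries lay far above both with little spread. The increase was 1.56-fold over the control (log2 fold change 0.645 ± 0.0572, adjusted p = 4.3e-09) and 1.60-fold over 30 min (adjusted p = 2e-09).

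SLC38A2 (ENSG00000134294, chromosome 12 from 46358188 to 46372773, minus strand) encodes SNAT2, which concentrates small neutral amino acids such as glutamine with sodium and is known for its induction by amino acid shortage. It was at 18.9, 16.7 and 18.5 FPKM in control cells, at 22, 25.2 and 18.8 after 30 min, and at 33.0, 32.4 and 30.9 after 24 h. Replicate 3 of the 30 min group lay among the control libraries and the other two lay above them, while the 24 h libraries were above all. It rose 1.71-fold at 24 h, the greatest fold change among the 9 members tested against the control (log2 fold change 0.77 ± 0.0789, adjusted p = 3.4e-08). At 30 min the log2 fold change was 0.30 ± 0.0792 (adjusted p = 0.058), which did not pass the test in the main setting. Across the alternatives (edgeR, DESeq2 or limma) this adjusted p ran from 0.0012 to 0.27. From 30 min to 24 h the log2 fold change was 0.47 (adjusted p = 2.2e-05), below the fold threshold.

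SLC38A1 (ENSG00000111371, chromosome 12 from 46183063 to 46270017, minus strand), which encodes the sister carrier SNAT1, was at 18.9, 15.5 and 19.1 FPKM in control cells, at 16.4, 18.5 and 16.3 after 30 min and at 18.4, 17.5 and 16.8 after 24 h. The 3 groups overlapped throughout. The log2 fold change at 24 h was −0.08, with a 95% interval from −0.23 to 0.07 (adjusted p = 0.35), so a change as large as that of SLC38A2 lay outside the interval.

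SLC7A1 (ENSG00000139514, chromosome 13 from 29509414 to 29595688, minus strand) encodes CAT1, the main carrier for arginine and lysine. It was at 24.5, 22.3 and 24.6 FPKM in control cells, at 21.8, 22.7 and 25.9 after 30 min, and at 21.6, 21.1 and 21.0 after 24 h. The 24 h libraries were the lowest, by a small margin. The log2 fold change at 24 h was −0.23 ± 0.062 (adjusted p = 0.0033), well short of the fold threshold. The related arginine carriers SLC7A2 and SLC7A3 were listed at 0 in all 9 libraries.

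SLC43A1 (ENSG00000149150, chromosome 11 from 57484534 to 57515780, minus strand) encodes LAT3, which carries leucine and other branched-chain amino acids without a heavy chain. It was at 27.95, 31.2 and 30.0 FPKM in control cells, at 27.2, 27.4 and 30.6 after 30 min, and at 29.3, 30.1 and 30.1 after 24 h. The groups overlapped in each comparison. The log2 fold change at 24 h was −0.05, with a 95% interval from −0.19 to 0.08 (adjusted p = 0.48).

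Of the 9 members tested at 30 min, 0 were called in edgeR's quasi-likelihood test, and 0 were called by DESeq2 or limma. In edgeR 3 had an unadjusted p below 0.05 (SLC38A2, SLC3A2 and SLC1A5), with adjusted p values of 0.058, 0.093 and 0.20. The share of all genes at that unadjusted p is not given here. Over all genes tested, 0.639% were called at this time. The 30 min and control libraries did not overlap in 2 of 9 members, SLC3A2 and SLC1A5, and in 13.8% of all tested genes. The median log2 fold change of the 9 was −0.01, beside −0.003 over all genes tested.

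At 24 h against the control, 2 of 9 members rose, SLC1A4 and SLC38A2, and 0 were called lower. Among all 12035 genes tested, 14.8% were called higher and 11.5% lower. By the adjusted p alone 3 members were lower (SLC7A5, SLC7A6 and SLC7A1) and 2 higher, beside 32.5% lower and 30.9% higher over all genes. Libraries did not overlap in 6 of 9 members and in 69.7% of all genes tested. These shares of the members lie near those of all genes, and the members' median log2 fold change was −0.05, beside −0.002 over all genes.

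Against 30 min instead of the control, the 24 h libraries gave 1 member called lower (SLC7A5) and 1 called higher (SLC1A4) of 9. Over all genes 11.3% were called lower and 15.7% higher. By the adjusted p alone 5 were lower (SLC7A5, SLC7A6, SLC3A2, SLC7A1 and SLC1A5) and 2 higher (SLC1A4 and SLC38A2), beside 32.1% and 33.3% over all genes. Libraries did not overlap in 7 of 9 members and in 68.6% of all genes tested.

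**Figure D2:**
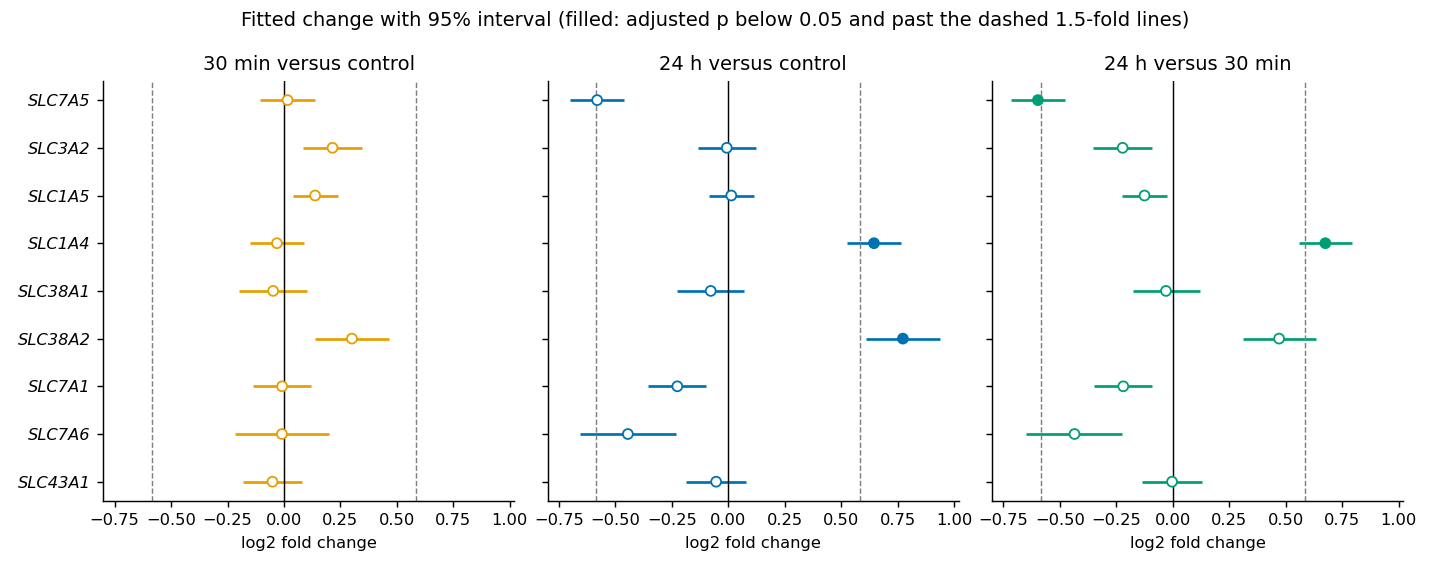
Fitted log2 fold changes (horizontal axis) of the 9 tested transporter genes with 95% intervals in the 3 comparisons; filled points are called and dashed lines mark a fold change of 1.5. No point is filled at 30 min, SLC1A4 and SLC38A2 are filled at 24 h against the control, and SLC7A5 sits on the lower dashed line.

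The balance of related transporters within a library is given as a ratio of FPKM, which does not depend on how libraries are scaled. The pairs were chosen with the levels known, so the ratios are a description. An exact permutation test was run on them. With 3 libraries per group its smallest 2-sided p is 0.1, so it could not separate the groups. The ratio of SLC7A5 to its heavy chain SLC3A2 was 3.39, 3.22 and 3.66 in control cells, and 2.79, 2.97 and 3.16 at 30 min, and 2.34, 2.30 and 2.24 at 24 h. The 3 groups did not overlap. The ratio of SLC1A4 to SLC1A5 was 0.185 ± 0.0108 in the control, 0.164 ± 0.011 after 30 min and 0.287 ± 0.001 after 24 h (SD, n = 3). The ratio of SLC38A2 to SLC38A1 was 1.02 ± 0.0563, 1.29 ± 0.113 and 1.83 ± 0.0319 in the same order. The ratio of SLC7A7 to SLC7A6 was 0.112 ± 0.00727, 0.109 ± 0.0131 and 0.270 ± 0.0168.

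**Figure D3:**
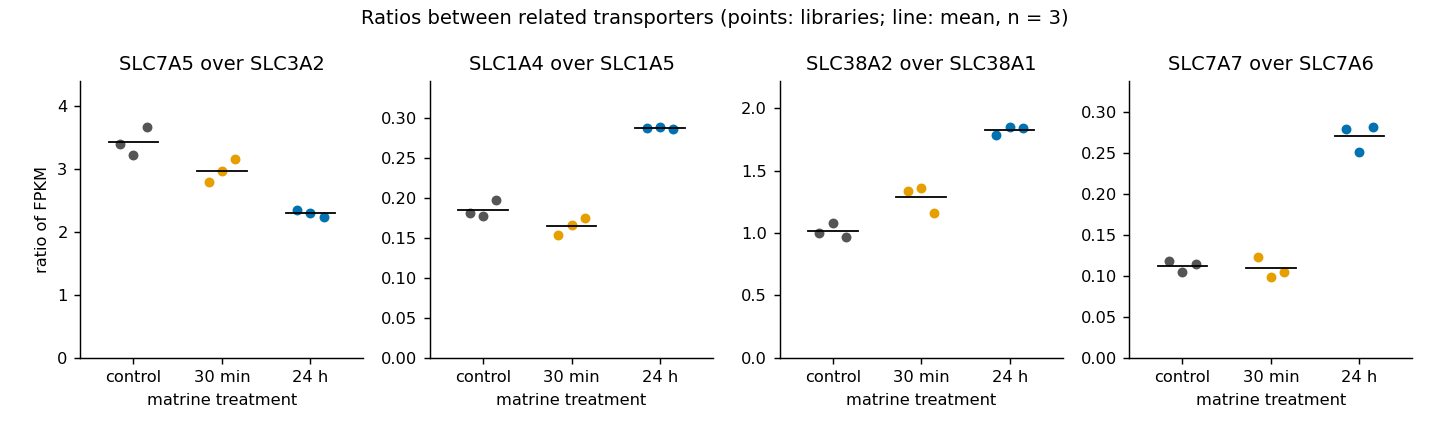
Ratio of FPKM (vertical axes from 0) between 4 pairs of related transporters in each library, with the mean as a line (n = 3). SLC7A5 over SLC3A2 is highest in the control and lowest at 24 h (2.24 to 2.34), and the other ratios are highest at 24 h.

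By mRNA, with no protein measured, SLC7A5 dominated the light chains that can pair with SLC3A2. It made up 93.4% ± 0.861 of the summed FPKM of 6 light chains (SLC7A5, SLC7A6, SLC7A7, SLC7A8, SLC7A10 and SLC7A11) in the control, 93.6% ± 0.326 after 30 min and 91.1% ± 0.318 after 24 h (SD, n = 3). The sum over the 6 was 3.67 ± 0.265 times the level of SLC3A2 in the control, 3.18 ± 0.192 times after 30 min and 2.52 ± 0.0647 times after 24 h. SLC7A11 (xCT), the cystine importer that is itself a classic stress-induced gene, was at 2.72 ± 0.386 FPKM in the control and 3.16 ± 0.302 at 24 h, with a log2 fold change of 0.16 (adjusted p = 0.21).

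Across the 9 libraries the members fell into patterns that are given here as a description, since the points share 3 treatment groups. TMM-normalized log2 CPM of SLC7A5 went with that of SLC7A1 (Pearson r = 0.906) and SLC7A6 (r = 0.849), and against SLC1A4 (r = −0.934) and SLC38A2 (r = −0.917). SLC3A2 went with SLC1A5 (r = 0.945) and less with SLC7A5 (r = 0.499). Among the 11899 genes searched, those most like SLC7A5 were NCDN (r = 0.997), KRI1 (r = 0.997) and PPP6R1 (r = 0.996). A high r does not mean a change of like size. From the control to 24 h the mean FPKM went from 14.52 to 11.26 for NCDN and from 35.33 to 29.35 for KRI1. PPP6R1, a regulatory subunit of protein phosphatase 6, had 108, 109 and 114 FPKM in control cells, at 30 min 106, 103 and 120, and at 24 h 77.7, 75.5 and 76.3, with replicate 3 of the 30 min group again the highest library. Those most like SLC3A2 included NDUFB11 (r = 0.975), a subunit of respiratory complex I, and ATXN7L2 (r = 0.957).

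MYC, the gene the study is about, was at 204, 213 and 204 FPKM in control cells, at 49.1, 55.1 and 58.0 after 30 min, and 42.2, 46.1 and 43.1 after 24 h. It fell 3.80-fold at 30 min (log2 fold change −1.93 ± 0.0613, adjusted p = 1.2e-14) and 4.93-fold at 24 h (−2.30 ± 0.0623, adjusted p = 2.4e-17).

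The listed genes that are known to respond to amino acid shortage gave the highest median of the lists at 24 h. Amino acid shortage itself was not tested. Of 14 tested, 9 rose and 0 were called lower, beside 14.8% higher and 11.5% lower over all genes, and their median log2 fold change was 0.76, beside −0.002 over all genes. The greatest were DDIT4 (13.4-fold), an inhibitor of mTORC1 signaling, DDIT3 (5.14-fold), which encodes the stress factor CHOP, ATF3 (2.74-fold) and VLDLR (2.04-fold). ATF3 passed the filter only through its 24 h level (0.853 FPKM in the control and 2.46 at 24 h) and was not tested at 30 min. DDIT4 was at 8.34, 10.4 and 9.04 FPKM in control cells, at 6.07, 6.29 and 6.55 after 30 min, and 122, 135 and 131 after 24 h. ASNS, whose promoter core is printed above, rose 1.98-fold (adjusted p = 3.1e-08), from 2.98 ± 0.303 to 6.14 ± 0.326 FPKM (SD, n = 3). ATF4 itself had a log2 fold change of 0.38 (adjusted p = 1.7e-06), below the fold threshold. At 30 min 1 of 13 tested genes of this list was called, beside 0.639% of all genes. This was CEBPB, a partner of the ATF family, which fell 1.68-fold (adjusted p = 2.9e-05). At 24 h its log2 fold change was 0.11 (adjusted p = 0.32). Without control replicate 1, DDIT4 was called lower at 30 min as well (log2 fold change −0.62).

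Genes of amino acid sensing by mTORC1 showed 6 of 32 tested higher and 2 lower at 24 h, beside 14.8% and 11.5% over all genes, with a median of 0.06. These counts are near the background and are no result about the list. SESN2, the leucine sensor Sestrin2, rose 3.54-fold, from 4.01, 4.25 and 4.25 FPKM in the control to 14.8, 15.02 and 16.3. FNIP2 (2.72-fold) and its partner FLCN (1.85-fold), which act on the Rag GTPases, rose with RRAGD (1.70-fold), itself a Rag GTPase. SEH1L, a subunit of GATOR2, fell 1.75-fold. LARS1, the leucyl-tRNA synthetase, fell 1.504-fold, a call that was lost without control replicate 1 (log2 fold change −0.56), control replicate 3 (−0.58) or 24 h replicate 1 (−0.57).

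Lists of transporters in other membranes were short, and their counts stand beside 14.8% of all genes called higher and 11.5% lower at 24 h. Of 8 lysosomal transporters tested 2 rose, with a median of 0.20: SLC66A1 (2.21-fold), which exports cationic amino acids, and the cystine exporter CTNS (1.57-fold). Of 10 mitochondrial carriers tested 3 fell and 1 rose, with a median of −0.26. The ornithine carrier SLC25A15 fell 1.99-fold and the serine carrier SFXN1 1.63-fold. SFXN2 fell 1.54-fold, a call lost without 24 h replicate 2 (log2 fold change −0.57), while SFXN3 rose 2.04-fold. Of 31 other plasma membrane transporters only 6 were expressed enough to be tested, and SLC16A10, a carrier of aromatic amino acids, fell 3.13-fold, from 1.57 ± 0.161 to 0.527 ± 0.0987 FPKM. It passed the filter through its control level, and was no longer tested without any one of the 3 control libraries.

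Among 15 tested enzymes that use glutamine, arginine and branched-chain amino acids, 3 fell and 1 rose at 24 h, beside 11.5% and 14.8% over all genes, with a median of −0.05. GOT2, the mitochondrial aspartate aminotransferase, fell 1.897-fold and ALDH18A1, which makes proline precursors from glutamate, 1.61-fold. The cytosolic aminotransferase GOT1 rose 1.51-fold and the branched-chain aminotransferase BCAT1 fell 1.51-fold. The call of GOT1 was lost without control replicate 1 or 24 h replicate 2 (both log2 fold changes 0.58), and that of BCAT1 without control replicate 1 (−0.52) or 24 h replicate 3 (−0.54). Of 8 tested partners and regulators of the CD98 heterodimer 0 were called in edgeR's quasi-likelihood test, DESeq2 or limma at 24 h. Without control replicate 2, 1 gene of this list was called lower in edgeR. The median log2 fold change of the 8 was 0.11. In edgeR 5 had an adjusted p below 0.05, beside 32.5% lower and 30.9% higher over all genes. With so few genes, none of these counts sets its list apart from all genes.

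**Figure D4:**
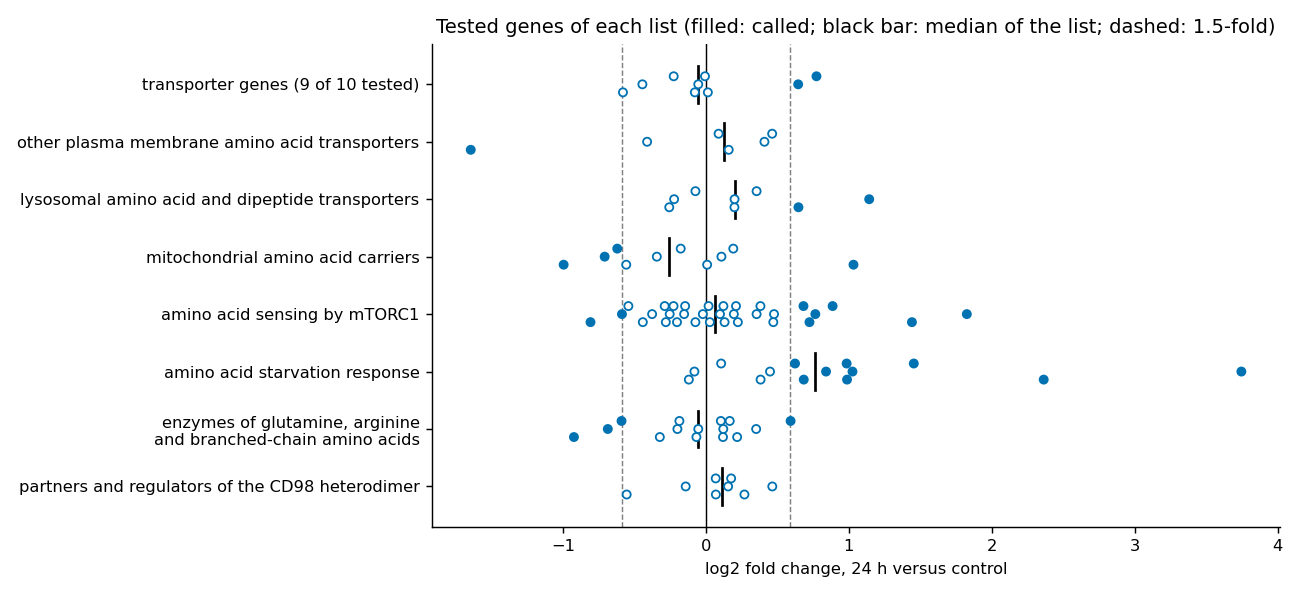
Log2 fold change at 24 h against the control (horizontal axis) of each tested gene in 8 lists, with the list's median as a black bar, called genes filled and a fold change of 1.5 dashed. The starvation response list is shifted to the right (median 0.76, 9 of 14 filled), and the transporter genes are spread on both sides of 0.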

How the data were processed

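The authors trimmed reads with cutadapt 1.9.1, mapped them with HISAT2 2.0.1 and counted them per gene with HTSeq 0.6.1, per the submitters' processing notes, and deposited the count and the FPKM of each gene. These notes name GRCh37 and the paper's methods hg38; the table holds no coordinates, so positions are those of GENCODE 44 (GRCh38), whose symbols matched 51996 of 57905 identifiers. Counts of 9 libraries were fitted at once with edgeR 4.0.16 (R 4.3.3; TMM, quasi-likelihood test, Benjamini-Hochberg over all tested genes). Intervals are 95%; the standard error is the log2 fold change divided by the square root of F. Scripts were tested on simulated data. Libraries of a group differed beyond sampling noise. The members and lists were chosen with earlier results of these data known. Named by rule were the members, MYC, up to 4 called genes per direction and list at 24 h, any called at 30 min, and the 3 genes most correlated with SLC7A5 and SLC3A2 (not all are reported here); ASNS, ATF4, SLC7A2, SLC7A3 and SLC7A11 were named after their values were seen, as were the markers. SLC6A14, SLC66A4, CASTOR2, SAMTOR and PECAM1 were not matched. Alternatives changed filter, scaling, tool (DESeq2 1.42.0, limma 3.58.1), pseudocount, fold threshold, libraries and replicate block. The series' other cell lines, HL-60 and K562, were not used here.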

Additional observations from a re-analysis of the deposited data

Results flagged for a closer look

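For 7 of 9 tested transporters the effect at 24 h differed from that at 30 min, by the test of the 24 h against the 30 min libraries (edgeR's quasi-likelihood test, adjusted p below 0.05). The difference, as a log2 fold change, was 0.68 for SLC1A4 and 0.47 for SLC38A2, in the direction of higher levels at 24 h. It was −0.60 for SLC7A5, −0.44 for SLC7A6, −0.22 for both SLC3A2 and SLC7A1, and −0.13 for SLC1A5, in the direction of lower levels. The libraries of these groups did not overlap in any of the 7. The adjusted p was 2e-09 for SLC1A4, 1.6e-08 for SLC7A5, 2.2e-05 for SLC38A2, 0.00087 for SLC7A6, 0.0037 for SLC3A2, 0.0041 for SLC7A1 and 0.028 for SLC1A5. Of these, SLC1A4 and SLC7A5 also passed the fold threshold. Across the alternatives (edgeR, DESeq2 or limma) the adjusted p reached 0.4 for SLC1A5, 0.091 for SLC7A1 and 0.053 for SLC3A2. The difference of these 3 genes thus depended on the processing. Over all genes, 32.1% were lower and 33.3% higher at an adjusted p below 0.05 in this comparison, and libraries did not overlap in 68.6%. The counts of members lie near these shares and are no result about the members as a set.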

How the results depend on the processing

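At 30 min no member was called under any alternative. The adjusted p of SLC38A2 and SLC3A2 did fall below 0.05 under some (lowest 0.0012 and 0.014 across edgeR, DESeq2 and limma). Their log2 fold changes stayed short of the fold threshold, at most 0.406 and 0.282. At 24 h against the control SLC1A4 and SLC38A2 were called under every alternative except a fold change of at least 2, which left 0 members; without the FPKM filter SLC7A7 was called as well. The number called lower there was 0, but 1 (SLC7A5) without the FPKM filter and 3 with no fold threshold, and it ranged from 0 to 1 when each library was left out in turn (2 called higher throughout). At 24 h against 30 min, 1 was called lower, but 0 with a mean FPKM above 5, with library totals alone, with limma on log2(FPKM + 0.1) or log2(FPKM + 1) and at a fold change of at least 2, 5 with no fold threshold, and 0 to 1 without 1 library. The number called higher there was 2 without the FPKM filter or with no fold threshold, 0 at a fold change of at least 2, and 1 without any 1 library. The cause of these shifts was not tested, apart from those that the fold threshold itself makes.

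Signs turned only for members near 0. At 30 min SLC7A5 was at −0.00135 and −0.00131 in limma with the smaller and larger pseudocount. SLC7A1 was at 0.0115 without the filter and 0.00705 with DESeq2's size factors or its Wald test, and SLC7A6 at 0.00985, 0.0057 and 0.0061 in that order. At 24 h against the control, SLC1A5 was at −0.019 without the filter and SLC3A2 at 0.00241 with only the 6 libraries compared. With a mean FPKM above 5, SLC3A2 was at 0.0772, SLC38A1 at 0.00572 and SLC43A1 at 0.0305. With library totals alone and both limma fits, SLC3A2 was at 0.0543, 0.0537 and 0.0525, and SLC43A1 at 0.00761, 0.00602 and 0.00581. At 24 h against 30 min, SLC38A1 was at 0.0529 with a mean FPKM above 5 and at 0.0457, 0.0436 and 0.0414 in those 3 fits, and SLC43A1 at 0.0785, 0.0718, 0.0702 and 0.068. Without 1 library, the ranges at 30 min were −0.0622 to 0.0857 (SLC7A5), −0.0843 to 0.0239 (SLC1A4), −0.0793 to 0.042 (SLC7A1) and −0.128 to 0.08 (SLC7A6). They were −0.0581 to 0.0646 (SLC3A2) and −0.0116 to 0.0421 (SLC1A5) at 24 h against the control, and −0.0703 to 0.0165 (SLC38A1) and −0.0437 to 0.0462 (SLC43A1) against 30 min.

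Replicate numbers did not pair the samples (correlations of deviations from −0.108 to 0.0765 over 9 pairs with the same number). A replicate block changed 0 calls of members: 0 lower and 2 higher at 24 h against the control, and 1 and 1 against 30 min. With 3 libraries per group, small changes of low genes such as SLC7A7 are not well resolved, and time in culture cannot be told apart from 24 h of matrine.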
